A study of Mus musculus with 8 samples.

Results

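Amino acid supply and tRNA charging are described here for long bone of Hyp mice, set against wild-type (WT) mice. Members were chosen by gene symbol from a list of 29 genes that make, import or load amino acids, and 28 of them had at least 1 probe set with that single symbol, out of 18193 genes measured. Pycr1, a late enzyme of proline synthesis, had none and was not analysed here. The 28 genes were read by 64 probe sets, groups of short probes for 1 transcript. They comprised 5 genes of serine, glycine and one-carbon synthesis, 3 of asparagine, proline and alanine synthesis, 8 amino acid transporters and 12 cytosolic aminoacyl-tRNA synthetases.

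In Hyp mice, a model of X-linked hypophosphataemia on the C57BL/6 background, the 3′ part of Phex is deleted. Its product is an endopeptidase on the surface of osteoblasts and osteocytes. The Hyp group had 4 arrays and the WT group, labelled only as wild type, had 4. All RNA came from tibia and femur of males aged 12 days kept on 1 standard diet, and each RNA combined 2 bone samples of 1 genotype. How many animals each came from was not stated, and the p-values cover only the variation among these 8 RNA preparations, part of which may be technical. The deletion is carried in every tissue, and long bones can hold marrow, vessel and muscle RNA besides that of bone cells.

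Cells make serine from a glycolytic intermediate, turn it into glycine and folate-bound one-carbon units, and make proline from glutamate. Glycine and proline are the most abundant residues of collagen, the main protein that osteoblasts secrete. The transcription factor ATF4, which is needed for osteoblast maturation, raises many of these enzymes, transporters and synthetases when amino acids run short or the endoplasmic reticulum is stressed. Aminoacyl-tRNA synthetases then load each amino acid onto its tRNA for translation.

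Values are on the log2 scale (base inferred) and, as deposited, centred so that each probe set has a median of 0 over the 8 arrays. They were averaged over the probe sets of a gene. Absolute expression cannot be read from them, so no gene's level could be set against another's, and the presence of tissue markers could not be checked. A "change" below passed limma's moderated test across all genes at a Benjamini-Hochberg adjusted p under 0.05. Phex, the deleted gene, had values of -2.99, -3.55, -3.48 and -3.65 in Hyp bone, against 3.48, 3.31, 2.95 and 3.26 in WT bone. WT replicate 3 lay apart on the second principal component of all probe sets, at -38.4, with the other arrays between -10.3 and 17.5. Differences without it are given for Slc7a5 and Slc6a9 only.

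Of the 28 genes, 6 fell and 1 rose in Hyp bone, and 21 did not pass. The genes that fell were Psat1, Eprs, Gars, Mthfd2, Slc1a4 and Aldh18a1, and the one that rose was Slc7a5. The share of genes lower was 21.4%, where 6.32% of all genes tested were lower. The share higher was 3.57%, where 6.54% of all genes were higher. In either direction, 25% of the members passed, against 12.9% of all genes. The member list was chosen with earlier results of these data known, so these shares are descriptive only. The median difference was -0.04 over the members and 0.02 over all genes. Differences were small: those of the 6 genes that fell lay between -0.41 and -0.26, so that the signal of Aldh18a1 fell by 16.2% and that of Psat1, at the other end, fell by 24.7%.

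**Figure D1:**
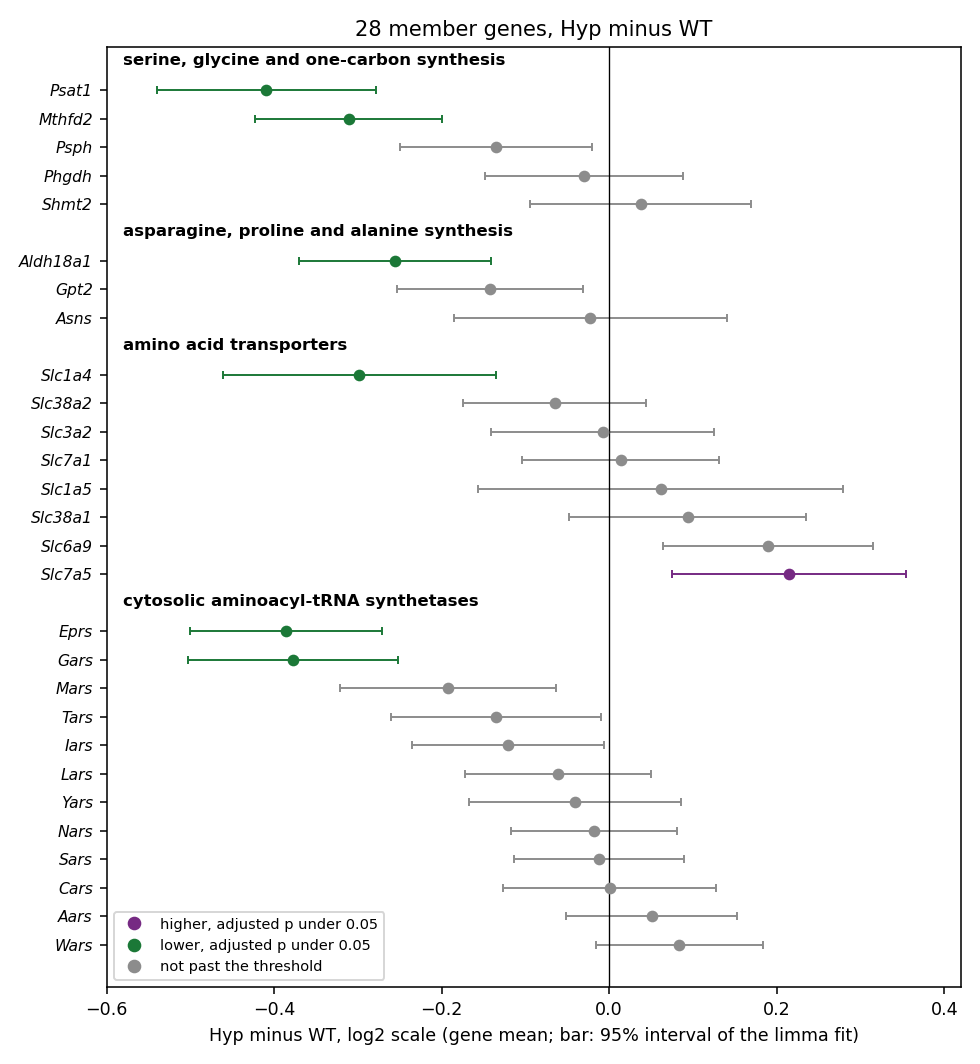
Difference between Hyp and WT bone for the 28 measured genes, grouped by role, on the log2 scale (points: limma estimates on gene means; bars: 95% intervals; n = 4 arrays per group). The 6 genes past the threshold below 0 lie between -0.41 and -0.26, and Slc7a5 is the 1 gene past it above 0, at 0.21.

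Promoter sequences are shown because many of these genes are known targets of ATF4. RefSeq promoter windows (build GRCm38.p6), reaching from 250 bases before a transcript start to 50 after it, were held for 21 of the 28 genes. They were searched on both strands for TGATGNAAN, the C/EBP-ATF response element that ATF4 binds with C/EBP partners. A match was found in 7 of the 21 genes (33.3%) and in 4.5% of the 27025 genes with a window. The 7 were 5 synthetases out of 8 with a window (Aars, Gars, Iars, Tars and Yars), Asns and Slc1a4. The matches are printed below in capitals, 5′ to 3′ as transcribed, within 61 bases of sequence, for the genes that hold one.

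Gars (fell), chr6:55037944-55038004, plus strand: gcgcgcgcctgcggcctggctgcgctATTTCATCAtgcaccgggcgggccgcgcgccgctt
Slc1a4 (fell), chr11:20332684-20332744, minus strand: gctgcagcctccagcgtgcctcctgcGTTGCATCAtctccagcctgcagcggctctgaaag
Asns (not past), chr6:7693198-7693258, minus strand: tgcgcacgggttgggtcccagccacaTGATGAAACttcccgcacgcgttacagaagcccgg
Aars (not past), chr8:111033703-111033763, plus strand: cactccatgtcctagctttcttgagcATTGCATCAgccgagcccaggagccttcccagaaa
Iars (not past), chr13:49682110-49682170, plus strand: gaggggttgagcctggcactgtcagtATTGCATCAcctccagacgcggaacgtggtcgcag
Tars (not past), chr15:11399640-11399700, minus strand: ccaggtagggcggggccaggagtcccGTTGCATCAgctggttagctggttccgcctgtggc
Yars (not past), chr4:129189880-129189940, plus strand: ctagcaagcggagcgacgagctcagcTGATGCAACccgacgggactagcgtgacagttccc

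In Asns and Yars the element reads as transcribed, and in the other 5 it lies on the opposite strand. Positions counted from the transcript start, with no base 0, were -23 to -15 in Asns, -31 to -23 in Gars, -5 to 4 in Slc1a4, -16 to -8 in Tars, 7 to 15 in Iars and 4 to 12 in Yars. Aars held 1 match at -113 to -105, printed above, and another at 9 to 17. Of the 6 genes that fell, all had a window and 2 held the element, and of the 15 other members with a window 5 did. Both sets thus held the element in about the same proportion. The windows of Psat1, Eprs, Mthfd2 and Aldh18a1 held no match, which says nothing of elements outside them. The 100 bases from 60 before to 40 after the start are printed for Psat1 and Eprs, the genes with the largest decreases. Psat1 had another window, at chr19:15924573-15924872 and with a start farther downstream, which is not printed.

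Psat1, chr19:15925020-15925119, minus strand: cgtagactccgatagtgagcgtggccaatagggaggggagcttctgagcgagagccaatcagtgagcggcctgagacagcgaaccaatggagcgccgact
Eprs, chr1:185362984-185363083, plus strand: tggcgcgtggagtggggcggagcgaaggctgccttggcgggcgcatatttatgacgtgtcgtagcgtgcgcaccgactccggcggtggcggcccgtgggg

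An E-box, CACGTG, was present in 4 of the 21 genes (19%; 8.09% of all genes), namely Aars, Aldh18a1, Iars and Tars. The palindromic cyclic AMP response element, TGACGTCA, was present in none of the 21 (2.03% of all genes). No 2 matches overlapped. A match is a description of sequence and was not tested for binding.

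Of the serine and glycine genes, 2 of 5 fell, where 6.32% of all genes did. With so few genes the share is only descriptive. The pair was the transaminase of serine synthesis and a mitochondrial folate enzyme. Psat1 encodes phosphoserine aminotransferase, which acts between Phgdh and Psph on the way to serine. Its values were -0.23, -0.16, -0.24 and -0.10 in Hyp bone, against 0.26, 0.10, 0.26 and 0.30 in WT bone. The groups did not overlap, and Psat1 fell by 0.41 ± 0.06 (SE; limma adjusted p = 0.00129). Both of its probe sets passed, at -0.41 and -0.41. Both carry a suffix that marks probes shared among transcripts, so the alternative without such probe sets gave Psat1 no value. Mthfd2, the mitochondrial enzyme that oxidises methylene-tetrahydrofolate made by Shmt2, had -0.21, -0.10, -0.24 and -0.23 in Hyp bone, against 0.09, 0.08, 0.16 and 0.13 in WT bone. It fell by 0.31 ± 0.05 (SE; limma adjusted p = 0.00264), with no overlap, and both probe sets passed.

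The enzymes on either side of Psat1 did not pass. Phgdh, which commits the glycolytic intermediate to serine, differed by -0.03 ± 0.05 (SE, 95% interval -0.15 to 0.09; limma adjusted p = 0.762). This interval excludes a decrease as large as that estimated for Psat1. Its 4 probe sets lay between -0.08 and 0.05, and all carry the suffix of probes that may match other sequences. Shmt2, which converts serine to glycine in mitochondria, differed by 0.04 ± 0.06, and its 4 probe sets lay between 0.02 and 0.06. Psph, the phosphatase that releases serine, had 1 probe set at -0.14 ± 0.05 (SE, 95% interval -0.25 to -0.02), with adjusted p = 0.12 in limma and an overlap between genotypes.

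Of the asparagine, proline and alanine enzymes, 1 of 3 measured fell, where 6.32% of all genes did, and the group is too small for its share to be read. Aldh18a1 encodes the synthase that starts proline and ornithine synthesis from glutamate. Its values were -0.09, -0.18, -0.13 and -0.08 in Hyp bone, against 0.18, 0.05, 0.19 and 0.12 in WT bone. The groups did not overlap, and Aldh18a1 fell by 0.26 ± 0.05 (SE; limma adjusted p = 0.0095). Of its 5 probe sets 4 passed, and the other lay at -0.11 (limma adjusted p = 0.403). Asns, asparagine synthetase and a widely used readout of ATF4 activity, had -0.08, -0.17, 0.09 and 0.06 in Hyp bone, against -0.03, -0.12, 0.13 and 0.03 in WT bone. The genotypes overlapped throughout, and the difference was -0.02 ± 0.07 (SE, 95% interval -0.19 to 0.14; limma adjusted p = 0.878). Gpt2, mitochondrial alanine aminotransferase, did not overlap between genotypes, with -0.11, -0.03, -0.11 and -0.09 in Hyp bone and 0.02, -0.01, 0.12 and 0.10 in WT bone. Its difference of -0.14 ± 0.05 did not pass (limma adjusted p = 0.0926).

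The 12 cytosolic synthetases split between a pair that fell and 10 that did not pass, so the share called, 16.7%, lay near the 12.9% of all genes. The pair was Eprs, which loads both glutamate and proline, and Gars, which loads glycine in the cytosol and in mitochondria. Eprs had -0.18, -0.16, -0.13 and -0.19 in Hyp bone, against 0.31, 0.12, 0.25 and 0.20 in WT bone. It fell by 0.39 ± 0.05 (SE; limma adjusted p = 0.000869), with no overlap, the smallest adjusted p among the 28 genes. Of its 4 probe sets 3 passed, at -0.76, -0.39 and -0.39, while the remaining one lay at -0.01 (limma adjusted p = 0.961). Gars, read by 1 probe set, had -0.21, -0.24, -0.15 and -0.11 in Hyp bone, against 0.22, 0.11, 0.30 and 0.17 in WT bone. Here too the groups were apart, and Gars fell by 0.38 ± 0.06 (SE; limma adjusted p = 0.00165).

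Among the other synthetases, 3 had 95% intervals that excluded 0 without passing after adjustment. They were Mars (methionine) at -0.19 ± 0.06, Tars (threonine) at -0.13 ± 0.06 and Iars (isoleucine) at -0.12 ± 0.05 (SE; limma adjusted p = 0.0549, 0.154 and 0.16). Mars had -0.12, -0.12, -0.12 and -0.01 in Hyp bone, against 0.08, 0.01, 0.22 and 0.10 in WT bone, with no overlap. Lars (leucine), Yars (tyrosine), Nars (asparagine), Sars (serine) and Cars (cysteine) had differences between -0.06 and 0.00. Those of Aars (alanine) and Wars (tryptophan) were 0.05 ± 0.05 and 0.08 ± 0.05, and adjusted p ranged from 0.263 to 0.997 over these 7 in limma. The probe sets of Aars disagreed in sign, at -0.08 and 0.18. So did those of Nars, of Sars and of Cars (for Cars at -0.004 and 0.005), and none of these passed. Wars did not overlap between genotypes on the gene mean, though the lowest Hyp value was 0.003 and the highest WT value -0.002.

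**Figure D2:**
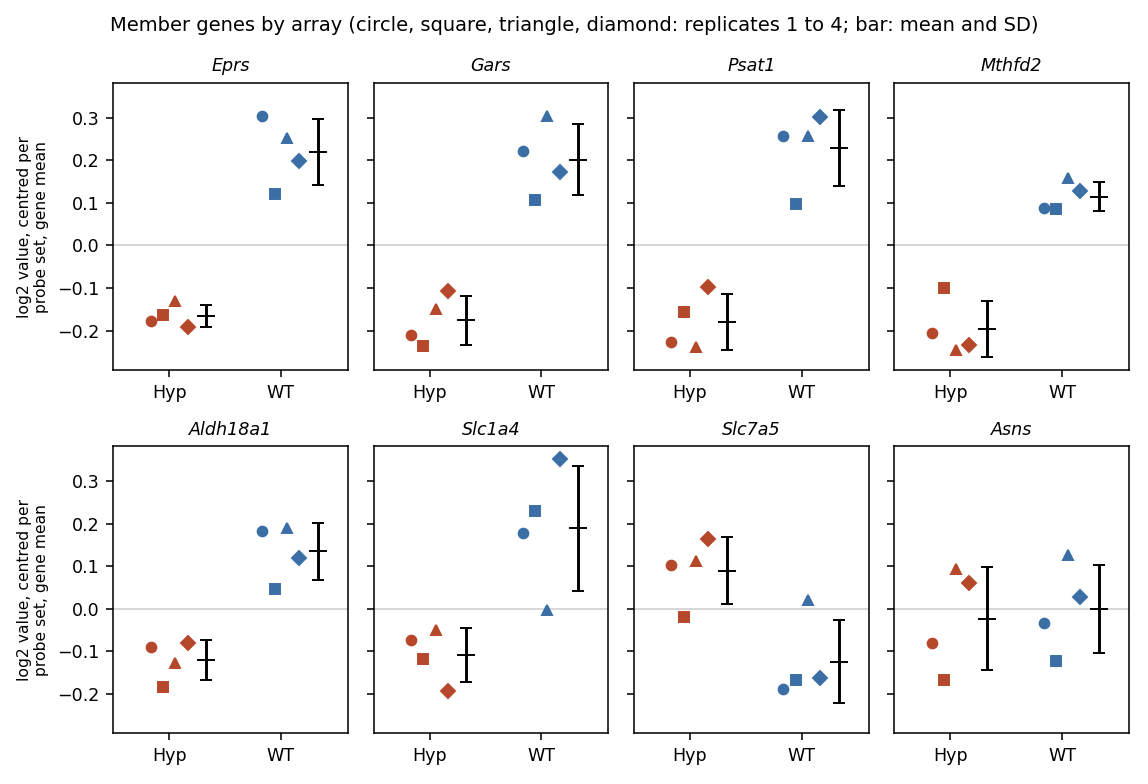
Values of 8 member genes in each array (centred log2 values, gene mean; symbols: replicates 1 to 4; bars: mean and SD, n = 4). Hyp arrays lie below all WT arrays for Eprs, Gars, Psat1, Mthfd2, Aldh18a1 and Slc1a4, WT replicate 3 lies among the Hyp arrays for Slc7a5, and the genotypes overlap throughout for Asns.

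The 8 transporters went both ways, with 1 lower, 1 higher and 6 not past the threshold (25% called, against 12.9% of all genes). Slc1a4 encodes ASCT1, an exchanger of serine, alanine, cysteine and threonine. It had -0.07, -0.12, -0.05 and -0.19 in Hyp bone, against 0.18, 0.23, -0.002 and 0.35 in WT bone. It fell by 0.30 ± 0.07 (SE; limma adjusted p = 0.0237) and did not overlap, though WT replicate 3 lay close to the Hyp arrays. Of its 3 probe sets 1 passed. The call was lost when any of Hyp replicate 2, Hyp replicate 4, WT replicate 1, WT replicate 2 or WT replicate 4 was left out, with adjusted p between 0.00416 and 0.0637 over the 8 such fits.

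Slc7a5 encodes LAT1, the light chain of the carrier of leucine and other large neutral amino acids. Its 1 probe set had 0.10, -0.02, 0.11 and 0.16 in Hyp bone, against -0.19, -0.17, 0.02 and -0.16 in WT bone. It rose by 0.21 ± 0.06 (SE; limma adjusted p = 0.0488), and the genotypes overlapped at Hyp replicate 2 and WT replicate 3. In the fit over probe sets its adjusted p was 0.0967. The call was kept in 5 of 19 alternative analyses, and without WT replicate 3 the difference was 0.26 (limma adjusted p = 0.0134). Slc3a2 encodes CD98, the heavy chain with which LAT1 forms its carrier, and differed by -0.01 ± 0.06 (SE, 95% interval -0.14 to 0.13; limma adjusted p = 0.951).

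Of the remaining transporters, Slc6a9, the glycine carrier GlyT1, came nearest to the threshold. It had 0.08, -0.02, 0.17 and 0.13 in Hyp bone, against -0.15, -0.12, -0.02 and -0.11 in WT bone. The difference of 0.19 ± 0.06 did not pass (limma adjusted p = 0.0523), and it passed without Hyp replicate 2 at 0.23 (adjusted p = 0.0332) and without WT replicate 3 at 0.22 (adjusted p = 0.0335). Slc38a1 and Slc38a2, which take up glutamine and other small neutral amino acids with sodium, differed by 0.09 ± 0.06 and -0.07 ± 0.05. Slc1a5, the glutamine exchanger ASCT2, differed by 0.06 ± 0.10. Slc7a1, a carrier of arginine and lysine, differed by 0.01 ± 0.05 (SE; limma adjusted p from 0.384 to 0.9 over these 4).

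**Figure D3:**
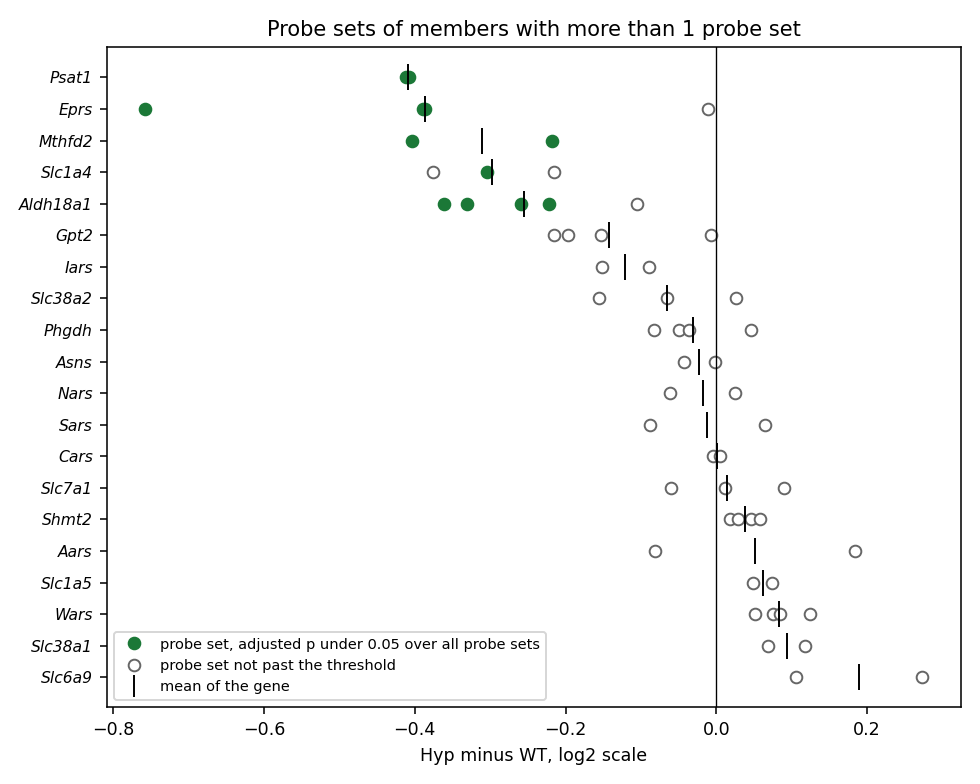
Hyp minus WT differences of single probe sets for the 20 member genes with more than 1 probe set, on the log2 scale (filled: adjusted p under 0.05 over all 45037 probe sets; bar: mean of the gene). All filled probe sets lie below 0, and 1 probe set of Eprs lies at -0.01 beside 3 filled ones.

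By probe set, 13 of 64 were lower and none higher (20.3%), where 7.13% of all probe sets passed, 3.91% lower and 3.22% higher (limma). At an unadjusted p under 0.05 there were 24 of 64 in both directions together (37.5%), where 22.1% of all probe sets were. All 13 belonged to the 6 genes that fell. On gene means, Hyp and WT arrays did not overlap for 10 of the 28 genes (35.7%, where the share was 19.2% of all genes), 9 of them with Hyp below WT (32.1%, where it was 8.89%) and Wars with Hyp above (3.57%, where it was 10.3%). Within the WT arrays, replicate 2 was the lowest for 5 of the 6 genes that fell, and replicate 3 for Slc1a4. The mean over the 6 genes lay between -0.16 and -0.15 in the 4 Hyp arrays, against 0.12 to 0.21 in the WT arrays. These genes were picked by this same difference, so the gap between the groups follows from the choice and is no further evidence.

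Genes next to the members in the same pathway gave a mixed picture by group. None of 10 other cytosolic synthetases and scaffold proteins passed in limma (3 at an unadjusted p under 0.05), and their median was 0.01. None of 16 mitochondrial synthetases passed either (3 at an unadjusted p under 0.05; median 0.02). At that unadjusted p, 27.5% of all genes passed, so neither count stands far above the background. In these 2 groups differences lay between -0.15 and 0.21. Of 23 mTORC1 amino acid sensing genes measured, 1 fell (4.35% called, against 12.9% of all genes). It was Sar1b, a GTPase of secretory vesicles, at -0.22 ± 0.06 (SE; limma adjusted p = 0.0398). Its call was lost in 12 of 19 alternative analyses, 6 of them leaving out 1 array (any Hyp replicate, WT replicate 1 or WT replicate 3), with adjusted p up to 0.138.

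Of 26 other amino acid and folate enzymes, 3 fell and 3 rose (23.1% called, against 12.9% of all genes; median 0.04). Aldh1l2 encodes the mitochondrial formyl-tetrahydrofolate dehydrogenase, which acts downstream of Mthfd2. It had -0.88, -0.98, -0.37 and -0.51 in Hyp bone, against 0.45, 0.37, 0.57 and 0.58 in WT bone. The genotypes were apart and Aldh1l2 fell by 1.18 ± 0.12 (SE; limma adjusted p = 0.000186), the largest decrease among these lists. Bcat1, the cytosolic branched-chain aminotransferase, fell by 0.47 ± 0.07 (limma adjusted p = 0.00147). Its values were -0.19, -0.45, -0.14 and -0.20 in Hyp bone, against 0.29, 0.18, 0.20 and 0.24 in WT bone. Its probe sets lay at -0.62, -0.49 and -0.31, and the last did not pass (limma adjusted p over all probe sets = 0.167). The call of Bcat1 was lost when probe sets with a suffix for shared probes were left out (limma adjusted p = 0.126). Glul, glutamine synthetase, and Arg1, an arginase that is also a marker of some macrophages and granulocytes, rose by 0.37 ± 0.06 and 0.32 ± 0.07 (limma adjusted p = 0.00242 and 0.0103). Named after their values were seen, Oat (ornithine aminotransferase) fell by 0.17 ± 0.05 and Got2, mitochondrial aspartate aminotransferase, rose by 0.17 ± 0.05 (limma adjusted p = 0.0447 and 0.0425).

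Of 24 other transporters, 7 fell and 3 rose (41.7% called, against 12.9% of all genes, with a median difference of 0.01). Slc36a1, a proton-coupled carrier of proline, glycine and alanine, had -0.14, -0.17, -0.16 and -0.14 in Hyp bone, against 0.37, 0.32, 0.38 and 0.14 in WT bone. It fell by 0.45 ± 0.06 (SE; limma adjusted p = 0.000739), with no overlap. Slc38a4, a sodium-coupled neutral carrier, fell by 0.57 ± 0.09, Slc7a6, a partner light chain of CD98, by 0.39 ± 0.06 and Slc38a10 by 0.31 ± 0.05 (limma adjusted p = 0.00218, 0.00202 and 0.00191). Of the 7 probe sets of Slc38a10, 3 passed, and all lay between -0.53 and -0.06. The call of Slc38a10 was lost with the probe set of largest SD (limma adjusted p = 0.0717). Named after their values were seen, Slc7a8, Slc7a2 and Slc36a4 fell by 0.42 ± 0.11, 0.26 ± 0.07 and 0.20 ± 0.05. Slc38a5, Slc43a1 and Slc6a6, also named after their values were seen, rose by 0.35 ± 0.09, 0.34 ± 0.09 and 0.26 ± 0.06 (limma adjusted p from 0.0183 to 0.0352 over these 6). For Slc38a5 and Slc43a1 the genotypes overlapped at Hyp replicate 2 (-0.011 and -0.016) and WT replicate 3 (0.011 and 0.016).

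The regulators and targets of the amino acid response held 6 genes that fell and 1 that rose among 22 measured. The share called was 31.8%, against 12.9% of all genes, and the median difference was -0.004. Nupr1, a stress-induced nuclear protein, had -0.62, -0.86, -0.23 and -0.58 in Hyp bone, against 0.58, 0.23, 0.63 and 0.42 in WT bone. It fell by 1.04 ± 0.13 (SE; limma adjusted p = 0.000485), with no overlap. Chac1, which degrades glutathione, had -0.51, -0.32, -0.18 and -0.36 in Hyp bone, against 0.41, 0.18, 0.25 and 0.45 in WT bone. It fell by 0.67 ± 0.08 (limma adjusted p = 0.000502). Stc2, the secreted glycoprotein stanniocalcin 2, fell by 0.61 ± 0.07 and Vldlr, a lipoprotein receptor, by 0.42 ± 0.08 (limma adjusted p = 0.000395 and 0.00508). The 6 probe sets of Vldlr lay between -0.57 and -0.30. Those at -0.39, -0.33 and -0.30 did not pass (limma adjusted p over all probe sets from 0.0818 to 0.135). Named after their values were seen, Eif2ak3, the kinase PERK that acts upstream of ATF4, fell by 0.22 ± 0.06 and Xpot, the tRNA exporter, by 0.16 ± 0.04. Ppp1r15a, a phosphatase subunit that reverses the signal to ATF4 and was also named after its values were seen, rose by 0.30 ± 0.07 (limma adjusted p from 0.0224 to 0.0392 over these 3).

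Other targets of the same response did not pass, among them, named after their values were seen, Trib3 at 0.15 ± 0.15, Ddit3 (CHOP) at 0.05 ± 0.05, Sesn2 at 0.03 ± 0.08 and Atf3 at 0.05 ± 0.07 (SE; limma adjusted p from 0.553 to 0.834). Atf4 itself had -0.06, -0.05, -0.02 and -0.03 in Hyp bone, against 0.17, 0.02, 0.11 and 0.12 in WT bone on the gene mean. The genotypes did not overlap, and the difference of -0.15 ± 0.05 did not pass (limma adjusted p = 0.0679). It passed in 3 of 18 alternatives, namely without WT replicate 2 (adjusted p = 0.0485), with the probe set of largest SD (0.00699) and in the unmoderated test (0.0426). Its 3 probe sets disagreed, at -0.48, -0.19 and 0.21 (limma adjusted p over all probe sets = 0.0084, 0.0793 and 0.0779), so no direction was read for its transcript. ATF4 activity is set largely by translation, which arrays do not measure.

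**Figure D4:**
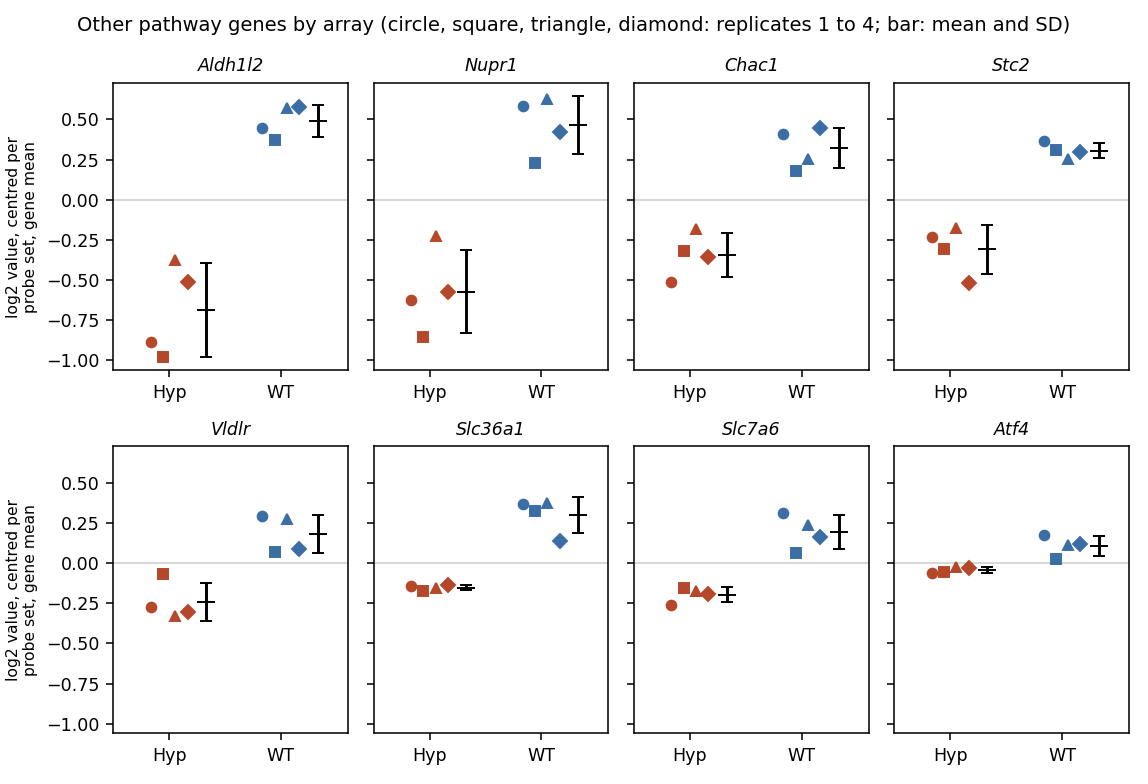
Values in each array of 8 genes outside the member list, 7 that fell and Atf4, which did not pass (centred log2 values, gene mean; symbols: replicates 1 to 4; bars: mean and SD, n = 4). All Hyp arrays lie below all WT arrays in each panel, with the differences of Aldh1l2 (-1.18) and Nupr1 (-1.04) the widest.

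Markers of other cell types moved with genotype in the same arrays. Over all genes, 6.32% fell and 6.54% rose. Of 14 measured osteoblast markers 12 fell and 1 rose, Col1a1, named after its values were seen. Their list mean lay between -0.40 and -0.19 in Hyp arrays and between 0.21 and 0.35 in WT arrays. Macrophage markers rose in 12 of 15 (list means 0.20 to 0.39 in Hyp arrays and -0.39 to -0.26 in WT arrays). Endothelial markers rose in 12 of 14 (0.10 to 0.26 in Hyp, -0.34 to -0.15 in WT), erythroid markers in 8 of 11 (0.05 to 0.17 in Hyp, -0.35 to -0.13 in WT) and proliferation genes in 7 of 14 (0.07 to 0.10 in Hyp, -0.16 to -0.001 in WT). The mean over the 28 member genes lay between -0.05 and -0.01 in Hyp arrays and between 0.02 and 0.05 in WT arrays. The part of these markers in the differences above was not tested, and in whole bone fewer cells of a type and less RNA per cell cannot be told apart. Which markers were at background could not be read from centred values.

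Skeletal muscle markers did not pass in any of 18 (limma; 2 at an unadjusted p under 0.05, or 11.1%, where 27.5% of all genes were). Their list mean was 1.95 in WT replicate 3 and -1.21 in Hyp replicate 2, and lay between -0.56 and 0.31 in the other arrays. With both of these arrays left out, 6 members fell and 2 rose, Slc7a5 and Slc6a9. Over all genes 12.9% were called, and the neutrophil and osteoclast lists lay near that share. Neutrophil markers rose in 2 of 14 (14.3%) and B lineage markers fell in 3 of 13 (23.1%). Osteoclast markers had 1 higher and 1 lower of 12 (16.7%), and chondrocyte markers had 5 higher and 2 lower of 14 (50%). The genes concerned, named after their values were seen, were Csf3r and Padi4, then Vpreb1, Rag1 and Dntt, then Car2 and Dcstamp, and among the chondrocyte markers Comp, Col2a1, Hapln1, Acan and Matn3 (higher) and Col11a1 and Col11a2 (lower).

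**Figure D5:**
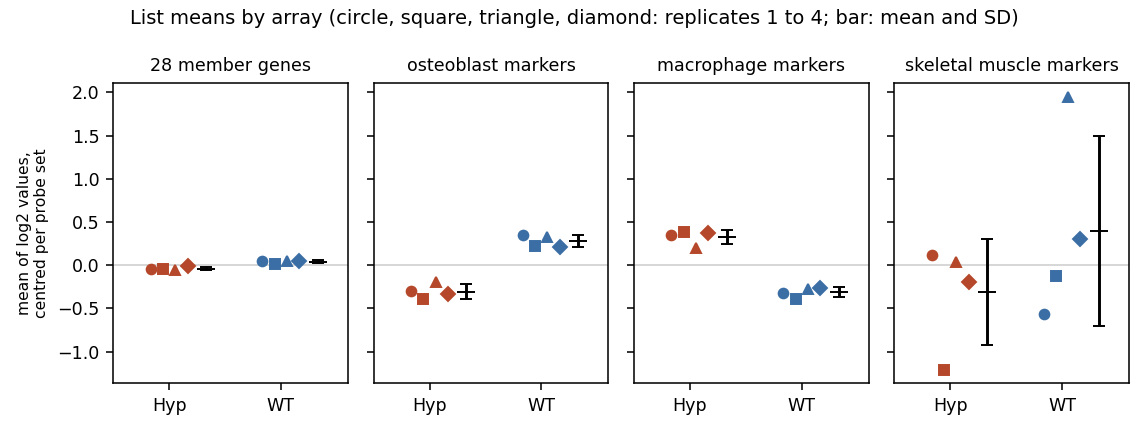
Mean of the centred log2 values in each array over the 28 member genes and over osteoblast, macrophage and skeletal muscle markers (symbols: replicates 1 to 4; bars: mean and SD, n = 4). The osteoblast means are below 0 in all Hyp arrays and above 0 in all WT arrays, the macrophage means the reverse, and WT replicate 3 stands at 1.95 for muscle.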

How the data were processed

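Total RNA of 4 Hyp and 4 WT samples was amplified and biotin-labelled by in vitro transcription and hybridised to 1 array each, per the labels' protocols. The deposited log2 values come from RMA, per the submitters' processing notes, and its version is not given in the sources used here. The median of each probe set over the arrays was 0 within 5e-07, a centring seen in the deposited values that no label records. The log base was taken as 2, since probe sets spanned up to 8.92 units, more than the 4.8 that a 16-bit scanner covers in log10.

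Of 45101 probe sets, 64 controls were left out. Platform annotation gave 34945 a single symbol, several to 932 and none here to 9160, and 34741 of the first were matched to RefSeq GRCm38.p6 by gene identifier. Probe sets with several symbols, 3 of them naming a member, were not used for genes. Differences, Hyp minus WT, were tested two-sided with limma 3.58.1 (R 4.3.3; lmFit, eBayes), with 1 fit over 18193 gene means and 1 over 45037 probe sets. Errors marked SE come from these fits, and the number of arrays limits the precision.

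Members, gene lists, motifs and tests were chosen with earlier results of these data known. Named were all members, Atf4, Phex and, from each pathway list, up to 4 changed genes with the smallest p. On simulated data over 18193 genes, 21 of 67 changes of 0.25, 58 of 67 of 0.5 and 66 of 66 of 1 (log2) were recovered, with 4 false calls. Far fewer genes were changed there than the 2340 called in the data, so these shares need not be those of the real fit. Alternatives were a replicate block, each array left out, other normalizations, array weights, other probe set choices, a filter on the SD, a robust prior, a threshold of 0.01 and an unmoderated test. A filter on level could not be run on centred values.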

Additional observations from a re-analysis of the deposited data

Results flagged for a closer look

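Within a group of 4 arrays, 1 array lay far from the other 3 in 3 of 86 groups examined over the members and the other named genes, where chance gives about 1 in 20. For Slc7a5, WT replicate 3 was at 0.0201 and the other WT arrays between -0.189 and -0.164. For Mars, Hyp replicate 4 was at -0.00612 and the other Hyp arrays between -0.122 and -0.115. For Arg1, WT replicate 4 was at -0.0403 and the other WT arrays at -0.259 and -0.258.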

How the results depend on the processing

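Psat1, Eprs, Gars, Mthfd2 and Aldh18a1 kept their direction and their call in each of the 18 or 19 alternatives that gave them a value. Slc1a4 lost its call in 10 of 19 and Slc7a5 in 14 of 19, without a change of sign. Deviations of same-numbered Hyp and WT arrays correlated at -0.01, 0.06, 0.18 and 0.08 for replicates 1 to 4, and 2 of the 4 numbers matched best with their own partner, so the labels' numbers were not taken as pairs. With a replicate block, 5 members were lower and 0 higher (1063 and 1015 of all genes), and the named calls lost were those of Slc1a4, Slc7a5 and Sar1b. Members higher (1 as reported) numbered 0 to 2 when 1 array was left out, 2 with both WT 3 and Hyp 2 left out and with array weights, and 0 with quantile normalization, median centring, the probe set of largest SD, the SD filter, the threshold of 0.01 and the unmoderated test. Members lower (6 as reported) ranged from 5 to 6 when 1 array was left out and from 4 to 7 otherwise. With 1 array left out, genes higher (1190 as reported) ranged from 605 (without WT replicate 1; 787 without WT replicate 4) to 1437, and genes lower (1150 as reported) from 805 to 1153. In the other alternatives on all 18193 genes, genes higher ranged from 407 at the threshold of 0.01, with 737 in the unmoderated test, to 1511 with array weights, and genes lower from 618 at 0.01 to 1292 with array weights. Mars passed with quantile normalization, with median centring and without WT replicate 2. The causes were not tested. Only 10 members passed the SD filter. Centred values leave signal over background unknown.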
